A study of Mus musculus with 8 samples.

Results

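The actins, tropomyosins and gelsolin form a family of 10 genes among the 55487 rows of the count table, and all 10 passed the filter on low counts that left 12060 tested genes. The genes were taken by symbol: the striated and smooth muscle actins Acta1, Acta2 and Actc1, the cytoplasmic actins Actb and Actg1, the tropomyosins Tpm1, Tpm2, Tpm3 and Tpm4, and the actin-severing protein gene Gsn. The family was chosen from its counts under both conditions, with the difference between NAM/PN and vehicle already known. That difference is therefore given below as a description, with no p-value for these genes. RNA came from MuSCs (muscle stem cells) of aged wild-type male mice, isolated by FACS from 4 pools of 2 mice. Cells of each pool were grown for 72 hours in growth medium with either 1% DMSO as vehicle or the NAM/PN combination (nicotinamide and pyridoxine, a form of vitamin B6) at 1 mM, which gave 4 libraries per condition. Whether the NAM/PN cultures also held DMSO is not stated in the labels. That the 2 libraries of a pool hold cells of the same mice was read from their shared pool identifier. No young mice and no genetic change entered these groups. Each pool mixes 2 mice, so differences between the mice of a pool were not measured, and no uncultured cells were among the libraries.

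Actin polymerizes into filaments in every cell. In striated muscle the thin filament of the sarcomere is built from muscle actins, along which tropomyosin dimers lie and, with the troponin complex, gate the access of myosin in response to calcium. Muscle stem cells that leave the cell cycle and differentiate begin to transcribe the muscle actins and the muscle forms of tropomyosin, while cytoplasmic actin is present in proliferating cells as well. Gelsolin severs actin filaments and caps their ends in a calcium-dependent way. Transcription of many actin genes is known to depend on serum response factor (SRF), which binds the CArG box, and muscle genes are often bound by MyoD family proteins at E-boxes.

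Library totals ranged from 6472484 to 10163101 counts. The rRNA gene with the largest count took 18.7% of vehicle pool 3 and 5.22% of NAM/PN pool 4, against 9.09% to 11.6% in the other libraries. NAM/PN pool 4 had the largest total but the fewest detected genes, 12483. Values are normalised counts (CPM, scaled to a common library size). A floor of 3 counts corresponded to 0.280 to 0.457 CPM, for counting error only. The QuantSeq 3′ method reads the end of each transcript once, so counts were not divided by length, and a gene's count sums all isoforms that share the gene. Levels of different genes are comparable only as far as their ends are primed and mapped alike. The myogenic identity of the cells was checked with 8 markers (Pax7, Myod1, Des and others), whose summed level was 2741 to 3223 CPM in vehicle and 2187 to 2745 CPM with NAM/PN. Of the 7 tested identity markers, 0 were called different in edgeR and 1 had an unadjusted p under 0.05, while all 7 had a negative log2 fold change, with a median of -0.19. In bulk RNA, fewer cells of a type and less RNA per cell cannot be told apart.

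The muscle actins Acta1 and Acta2 and gelsolin had the largest differences in the family. Their mean level with NAM/PN was 15.4%, 19.2% and 16.4% of the vehicle mean, and no NAM/PN library reached the lowest vehicle library. Tpm1 and Tpm2, at 69.5% and 64.5% of the vehicle mean, also had no overlap between the conditions but were not called. The 95% intervals of the log2 fold change of Actb, Actg1, Tpm3 and Tpm4 included 0.

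By edgeR's quasi-likelihood test at an adjusted p of 0.05, 3 of the 10 genes were called lower with NAM/PN and 0 were called higher. Over all 12060 tested genes, 120 (0.995%) were called lower. With the pool as a replicate block, 4 of the 10 were called lower, beside 123 (1.02%) of all tested genes, and the added gene was Actc1. In 5 of the 10 genes every NAM/PN library lay below every vehicle library, beside 533 (4.42%) of all tested genes. The log2 fold change was negative in 8 of the 10 genes, and its median was -0.58 against -0.0022 over all tested genes. Since the family was selected on this contrast, nothing is read from these counts.

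**Figure D1:**
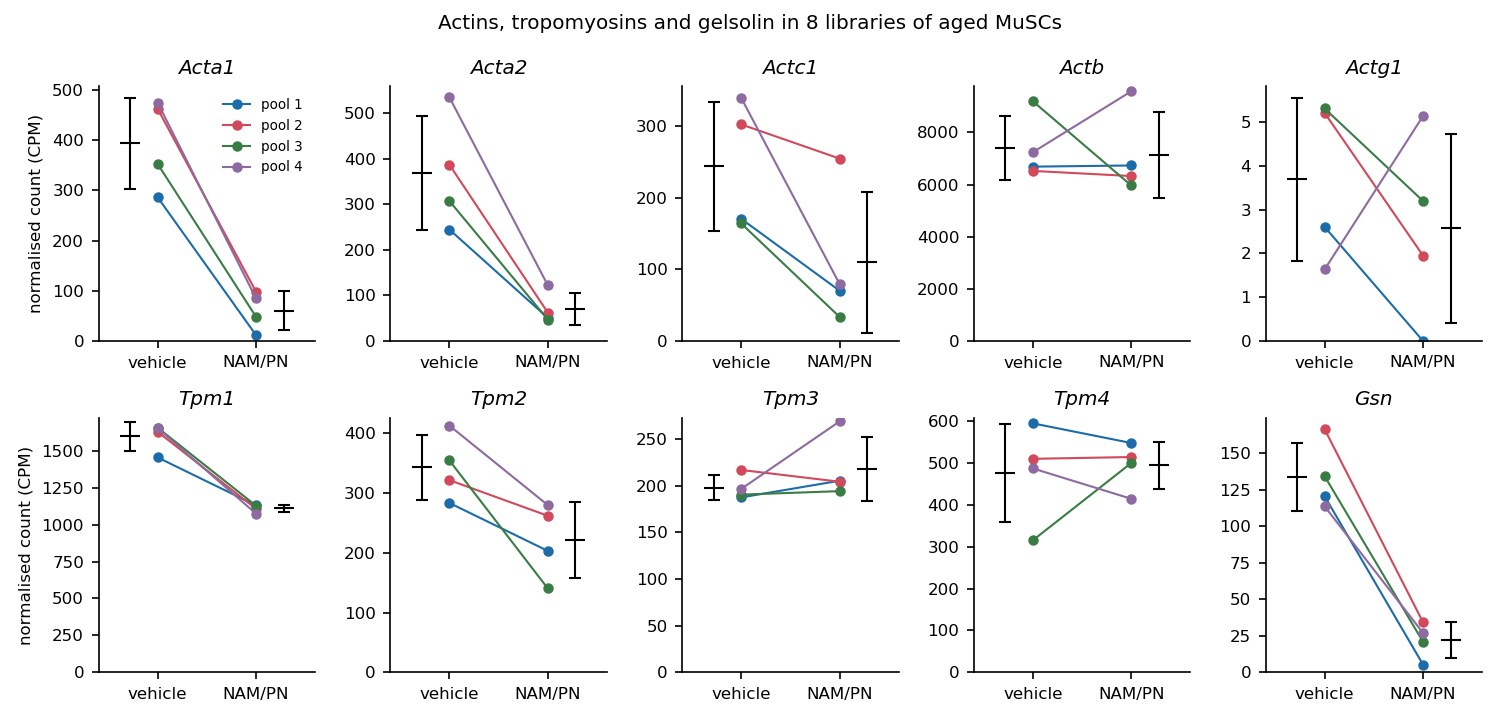
Normalised counts (CPM, linear axis from 0) of the 10 genes in vehicle and NAM/PN libraries, with a line joining the 2 libraries of each pool and bars giving the mean ± SD of the 4 libraries beside them. The lines of Acta1, Acta2 and Gsn fall in all 4 pools and end below the lowest vehicle library, whereas those of Actb, Actg1, Tpm3 and Tpm4 run in both directions.

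RefSeq promoter windows of GRCm38.p6 were searched for motifs because several of these genes were lower together. A window runs from 250 bases before to 50 bases after an annotated start, and 12 windows were found for 9 of the 10 genes, with none for Actb. The part upstream of the start is shown, 5′ to 3′ on the gene's strand, for the 5 genes whose conditions did not overlap. Strict matches to the CArG box and to the E-box CANNTG are in capitals. For Gsn the most upstream of 3 starts is given.
Acta1, chr8:123894776-123895025, minus strand: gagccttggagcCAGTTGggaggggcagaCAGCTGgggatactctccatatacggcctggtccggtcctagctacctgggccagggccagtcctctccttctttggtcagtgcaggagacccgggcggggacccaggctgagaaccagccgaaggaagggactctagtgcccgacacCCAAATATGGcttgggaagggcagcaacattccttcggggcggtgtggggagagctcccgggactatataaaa
Acta2, chr19:34255374-34255623, minus strand: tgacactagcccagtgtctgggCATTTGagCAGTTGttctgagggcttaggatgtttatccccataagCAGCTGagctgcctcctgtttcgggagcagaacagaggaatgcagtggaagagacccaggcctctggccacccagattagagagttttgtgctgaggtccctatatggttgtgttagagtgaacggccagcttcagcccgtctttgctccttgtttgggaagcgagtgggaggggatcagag
Tpm1, chr9:67049214-67049463, minus strand: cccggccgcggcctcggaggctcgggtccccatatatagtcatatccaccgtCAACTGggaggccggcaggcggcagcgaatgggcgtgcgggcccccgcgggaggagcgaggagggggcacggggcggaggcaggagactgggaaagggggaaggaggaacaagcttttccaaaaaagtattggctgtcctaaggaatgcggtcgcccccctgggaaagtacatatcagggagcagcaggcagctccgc
Tpm2, chr4:43523555-43523804, minus strand: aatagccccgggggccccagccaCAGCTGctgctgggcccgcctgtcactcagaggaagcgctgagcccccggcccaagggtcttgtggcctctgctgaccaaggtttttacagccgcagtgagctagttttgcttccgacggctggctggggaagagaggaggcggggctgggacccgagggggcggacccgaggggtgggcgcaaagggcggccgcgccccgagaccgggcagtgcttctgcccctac
Gsn, chr2:35256109-35256358, plus strand: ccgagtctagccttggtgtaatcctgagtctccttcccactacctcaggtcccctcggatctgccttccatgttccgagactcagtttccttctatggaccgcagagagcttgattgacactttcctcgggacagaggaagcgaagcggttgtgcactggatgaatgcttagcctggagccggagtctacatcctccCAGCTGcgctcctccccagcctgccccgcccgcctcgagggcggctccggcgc

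A CArG box (CC, then a run of A or T, then GG, on either strand) occurred in 3 of the 12 windows, against 1.63% of all 32851 promoter windows. These were the windows of Acta1, with CCAAATATGG beginning 73 bases before the start, of Actc1, with CCAAATAAGG beginning 47 bases before it, and of Actg1, with CCATATATGG beginning 90 bases before it. The Acta2 window holds no match to the strict motif. Its printed sequence does hold ccctatatgg and ccttgtttgg, where a C or a G breaks the run of A or T. Such near matches were not searched for in any window and are left in lower case. The Actg1 counts are low and uncertain, as described below, and Actc1 was not called without the block. The E-box CANNTG was present in all 12 windows and in 72.3% of all windows, and its form CAGCTG, which is a subset of the same matches, in 7 of the 12 and in 16.3% of all windows. CAGCTG was found for Acta1, Acta2, Tpm2, Tpm3, Tpm4 and Gsn. The MEF2 site (CTA, a run of A or T, TAG) was in 0 of the 12 windows and in 0.557% of all windows. These matches are a description of letters in the windows and not of binding. Their part in the levels of the genes was not tested.

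Acta1 (ENSMUSG00000031972, GRCm38 chr8:123891769-123894751, minus strand) encodes skeletal muscle α-actin, the main actin of the adult skeletal muscle thin filament. Its level was 286, 463, 353 and 475 CPM in vehicle pools 1 to 4 and 11.4, 98.1, 48.0 and 84.6 CPM with NAM/PN. The highest NAM/PN library thus stood at less than the lowest vehicle library, and NAM/PN pool 1 was the lowest of all, with 93 counts. Acta1 fell from 394 ± 90.5 CPM in vehicle to 60.5 ± 39.0 CPM (SD, n = 4 per condition), and the fit put its log2 fold change at -2.70 (SE 0.41, 95% interval -3.55 to -1.85). It was called lower with and without the replicate block.

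Acta2 (ENSMUSG00000035783, GRCm38 chr19:34241090-34255590, minus strand) encodes the vascular smooth muscle α-actin, which is also transcribed in differentiating myoblasts and in activated fibroblasts. Vehicle pools 1 to 4 gave 244, 386, 307 and 534 CPM, and the same pools with NAM/PN gave 50.6, 62.1, 46.9 and 122 CPM. All NAM/PN libraries lay below all vehicle libraries, and pool 4 was highest in both conditions. Acta2 fell from a mean of 368 ± 125 CPM to one of 70.5 ± 35.1 CPM (SD, n = 4 per condition), with -2.38 as its log2 fold change (SE 0.29, 95% interval -2.99 to -1.77). It was called lower in both fits.

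Because Acta2 is also a marker of smooth muscle and of fibroblasts, markers of those cells were measured beside it. The sort in the study's methods, described there for young mice, kept CD34+ and integrin α7+ cells and removed those with CD31, CD11b, CD45 or Sca1, a gate that would take out endothelial cells, immune cells and Sca1+ fibro-adipogenic cells. Of 10 mural and smooth muscle markers, 4 were tested, 0 were called in edgeR and 0 had an unadjusted p under 0.05, and their summed level was 75.9 to 136 CPM in vehicle and 94.9 to 130 CPM with NAM/PN. Myh11, the smooth muscle myosin heavy chain gene, had 0 counts in all 8 libraries. Of 9 fibro-adipogenic and fibroblast markers, 2 were tested. Pdgfra, a defining marker of these cells, was at 0 in all 8 libraries. Col3a1 was called lower (log2 fold change -1.17, adjusted p = 0.0026 in edgeR), and Col1a1 had 3949 and 7409 counts in NAM/PN pools 1 and 2 against 14 to 334 in the other 6 libraries. Summed, the fibroblast markers reached 157 to 207 CPM in vehicle and 57.0 to 1125 CPM with NAM/PN. In NAM/PN pools 1 and 2, with the high Col1a1 counts, Acta2 was at 50.6 and 62.1 CPM, and in pools 3 and 4, with 26 and 35 Col1a1 counts, at 46.9 and 122 CPM. Ptprc, the pan-leukocyte marker, was at 0 in all 8 libraries, and endothelial and immune markers summed to at most 29.6 and 14.1 CPM per library.

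Actc1 (ENSMUSG00000068614, GRCm38 chr2:114047282-114053548, minus strand) encodes cardiac α-actin, which is also the early actin of developing and regenerating skeletal muscle. It had 171, 303, 164 and 340 CPM in vehicle pools 1 to 4 and 70.3, 255, 33.7 and 79.8 CPM with NAM/PN. The conditions overlapped because NAM/PN pool 2 exceeded vehicle pools 1 and 3, although each pool was lower with NAM/PN than with vehicle. The means were 244 ± 90.2 and 110 ± 98.9 CPM (SD, n = 4 per condition), and the log2 fold change was -1.16 (SE 0.42, 95% interval -2.03 to -0.29). Actc1 was not called without the block and was called lower with it (log2 fold change -1.48, SE 0.28). It was also called lower when NAM/PN pool 2 was left out, at a log2 fold change of -1.99.

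The muscle actins did not keep a fixed ratio to each other. In pool 1 the level with NAM/PN relative to vehicle was 0.0400 for Acta1, 0.207 for Acta2 and 0.412 for Actc1. In pool 2 it was 0.212, 0.161 and 0.842 in the same order. Pools 3 and 4 gave closer values, with 0.136 and 0.178 for Acta1, 0.153 and 0.229 for Acta2, and 0.205 and 0.235 for Actc1. Of the 4 pools, 2 (pools 1 and 2) therefore had Actc1 well above its partners, and the others did not.

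Accordingly, Actc1 made up 19.9% to 26.3% of the counts of the 3 muscle actins in vehicle, and 53.1%, 61.4%, 26.2% and 27.8% in NAM/PN pools 1 to 4. Acta1 made up 35.2% to 42.8% in vehicle and 8.65%, 23.6%, 37.3% and 29.5% with NAM/PN. NAM/PN pool 1 stands out as the library with the smallest Acta1 share. The widest 95% Wilson interval of any of these shares was 6.51 percentage points, for counting error only.

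**Figure D2:**
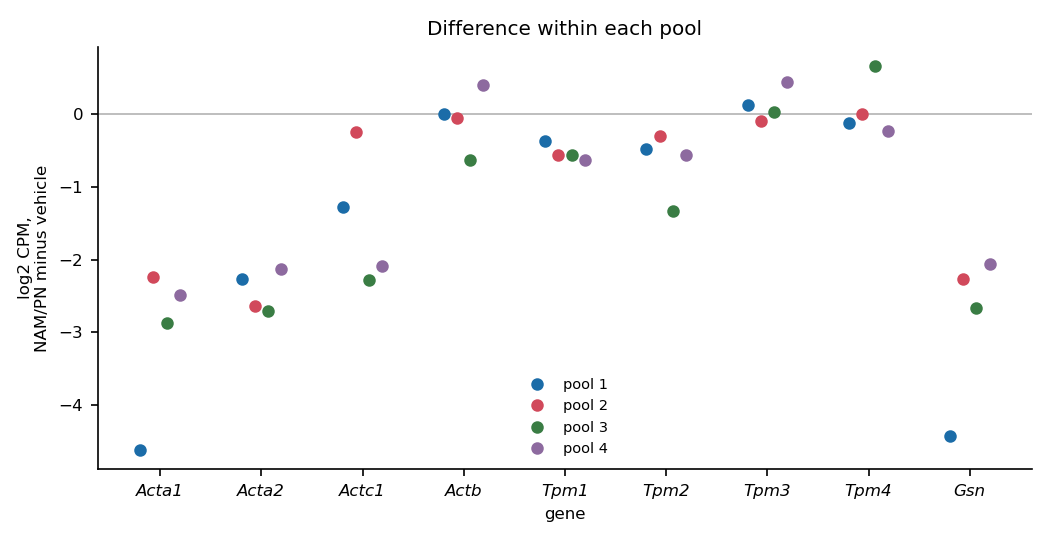
Difference in log2 CPM (prior count 2) between the NAM/PN and the vehicle library of each pool for 9 genes, with 1 point per pool. Actg1 is left out because of its low counts. Acta2 lies between -2.70 and -2.13 in the 4 pools, whereas Actc1 ranges from -2.28 to -0.25, and the lowest points of Acta1 (-4.62) and Gsn (-4.42) both belong to pool 1.

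The cytoplasmic actin Actb (ENSMUSG00000029580, GRCm38 chr5:142903115-142906754, minus strand) encodes β-actin, a main building block of the cytoskeleton. It was the most abundant gene of the family in every library, at 6688, 6524, 9196 and 7242 CPM in vehicle and 6733, 6327, 5965 and 9579 CPM with NAM/PN. Pool 3 was lower and pool 4 higher with NAM/PN, and pools 1 and 2 were close to equal. The means were 7412 ± 1228 and 7151 ± 1649 CPM (SD, n = 4 per condition), and the log2 fold change of -0.05 (SE 0.16) had a 95% interval of -0.38 to 0.27.

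Actg1 (ENSMUSG00000062825, GRCm38 chr11:120345690-120348542, minus strand) encodes γ-actin, the other cytoplasmic actin, which is usually abundant in cultured cells. Here it had only 22, 42, 43 and 15 counts in vehicle and 0, 14, 21 and 55 counts with NAM/PN. The fitted log2 fold change, -0.52, had an SE of 1.39, and no difference was detectable at these counts. The last 300 bases of its coding transcripts matched 7 other genes, all of them pseudogenes, at 95% identity or more over at least 100 bases, and one of them, Gm12715, matched all 300 bases at 100% identity. These 7 pseudogenes had 21 counts in all libraries together. How reads that map to several places were counted is not given in the sources used here, and their part in the low counts was not tested. The Actg1 values are therefore uncertain as a measure of γ-actin RNA.

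By comparison, the transcript ends of Acta1, Acta2, Actc1, Tpm1, Tpm2, Tpm4 and Gsn matched 0 other genes under the same criteria. Ends of Actb matched 4 other genes, of which Lrrc58 held 6016 of the 6017 counts. The 3 muscle actins together were 8.22% to 15.7% of the counts of all 5 actins in vehicle and 1.93%, 6.16%, 2.11% and 2.90% in NAM/PN pools 1 to 4. The share was 12.1 ± 3.80% in vehicle and 3.27 ± 1.97% with NAM/PN (SD, n = 4 per condition), without overlap. Their summed level went from 1007 ± 297 to 241 ± 138 CPM. That of all 5 actins went from 8423 ± 1185 to 7394 ± 1685 CPM, where the conditions overlapped. The shares and the sum over 5 actins include the Actg1 counts, which are uncertain as a measure of γ-actin RNA.

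Tpm1 (ENSMUSG00000032366, GRCm38 chr9:67022590-67049406, minus strand) encodes α-tropomyosin, with muscle and non-muscle isoforms from 1 gene. It was the most abundant tropomyosin in every library. It had 1454, 1627, 1654 and 1652 CPM in vehicle and 1129, 1106, 1127 and 1074 CPM with NAM/PN. The conditions did not overlap, and vehicle pool 1 lay apart from the other 3 vehicle pools. The means were 1597 ± 96.2 and 1109 ± 25.8 CPM (SD, n = 4 per condition), and the log2 fold change was -0.53 (SE 0.13, 95% interval -0.80 to -0.25). Tpm1 was not called with or without the block. It was called lower when vehicle pool 3 (log2 fold change -0.51) or NAM/PN pool 4 (-0.51) was left out.

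Tpm2 (ENSMUSG00000028464, GRCm38 chr4:43514711-43523765, minus strand) encodes β-tropomyosin, found in skeletal muscle and, as other isoforms, in smooth muscle and fibroblasts. Its level was 283, 321, 354 and 412 CPM in vehicle and 203, 262, 140 and 279 CPM with NAM/PN. The highest NAM/PN library, pool 4, lay just below the lowest vehicle library, pool 1. The means were 342 ± 54.7 and 221 ± 63.0 CPM (SD, n = 4 per condition), and the log2 fold change was -0.63 (SE 0.20, 95% interval -1.06 to -0.20), and Tpm2 was not called in either fit.

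Tpm3 (ENSMUSG00000027940, GRCm38 chr3:90072649-90100902, plus strand) encodes the tropomyosin of slow muscle fibres and widely used cytoskeletal isoforms. It stood at 188, 217, 191 and 197 CPM in vehicle and 205, 204, 194 and 269 CPM with NAM/PN, where pool 4 was apart from the other 3. The log2 fold change was 0.14 (SE 0.17, 95% interval -0.21 to 0.50). The transcript end of Tpm3 is identical over 300 bases to that of Tpm3-rs7, which had 30.7 to 130 CPM in vehicle and 30.7 to 67.2 CPM with NAM/PN, so the counts of Tpm3 are uncertain.

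Tpm4 (ENSMUSG00000031799, GRCm38 chr8:72134975-72153142, plus strand) encodes a mainly cytoskeletal tropomyosin. Its values were 594, 509, 315 and 487 CPM in vehicle and 547, 514, 499 and 414 CPM with NAM/PN. Of the 4 pools, 2 were lower and 2 were higher with NAM/PN, and the log2 fold change was 0.05 (SE 0.18, 95% interval -0.33 to 0.44).

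The tropomyosins as a group went from 2613 ± 116 to 2042 ± 58.7 CPM (SD, n = 4 per condition), and the conditions did not overlap. Tpm1 held 61.1 ± 3.39% of tropomyosin counts in vehicle and 54.4 ± 2.17% with NAM/PN, and Tpm2 held 13.1 ± 1.76% and 10.8 ± 2.94%. The shares of Tpm3 (7.58 ± 0.400% and 10.7 ± 1.68%) and Tpm4 (18.2 ± 4.55% and 24.2 ± 2.64%) were higher with NAM/PN, by their means. Only the share of Tpm1 and that of Tpm3 had no overlap between the conditions among these 4 shares, with Tpm1 at 57.7% to 65.8% in vehicle and 52.7% to 57.5% with NAM/PN.

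**Figure D3:**
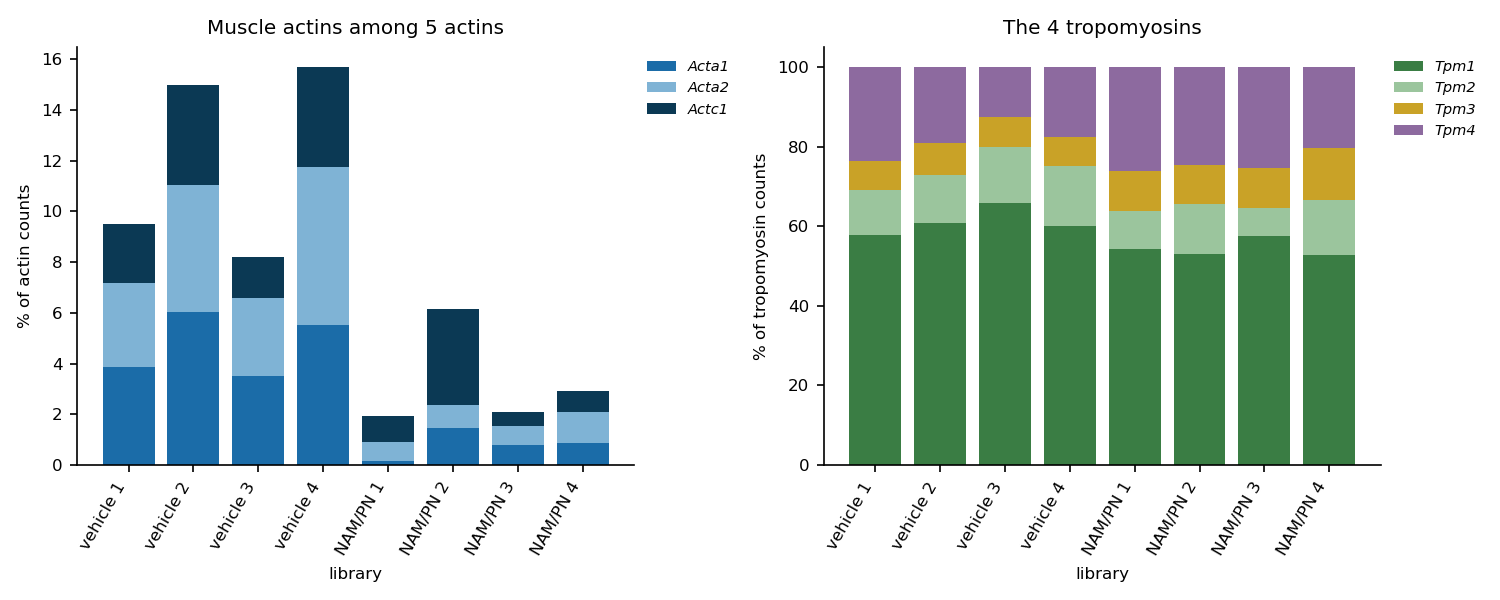
Share of each muscle actin among the counts of all 5 actins (left, %) and of each tropomyosin among the counts of the 4 tropomyosins (right, %), as stacked bars per library. The bars at left total 8.22% to 15.7% in vehicle and 1.93% to 6.16% with NAM/PN, and the highest NAM/PN bar is that of pool 2, where Actc1 is 61.4% of the muscle actin counts.

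Gsn (ENSMUSG00000026879, GRCm38 chr2:35256380-35307892, plus strand) encodes gelsolin in a cytoplasmic and a secreted form. It had 121, 167, 134 and 114 CPM in vehicle and 5.42, 34.4, 21.0 and 27.1 CPM with NAM/PN. All NAM/PN libraries were below all vehicle libraries, and NAM/PN pool 1 was again the lowest, as it was for Acta1. Gsn fell from 134 ± 23.4 to 22.0 ± 12.3 CPM (SD, n = 4 per condition), and the log2 fold change was -2.61 (SE 0.37, 95% interval -3.37 to -1.84), and was called lower with and without the block. Gelsolin is also abundant in fibroblasts, whose markers are given beside Acta2 above. Gsn stood at 5.42 and 34.4 CPM in NAM/PN pools 1 and 2, which had 3949 and 7409 Col1a1 counts. It stood at 21.0 and 27.1 CPM in NAM/PN pools 3 and 4, which had 26 and 35. Col3a1, the other tested fibroblast marker, was lower with NAM/PN, as Gsn was. Its level went from 155 ± 7.86 to 69.2 ± 12.7 CPM (SD, n = 4 per condition), and it was called lower with and without the block. The part of fibroblasts in the Gsn level was not tested.

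**Figure D4:**
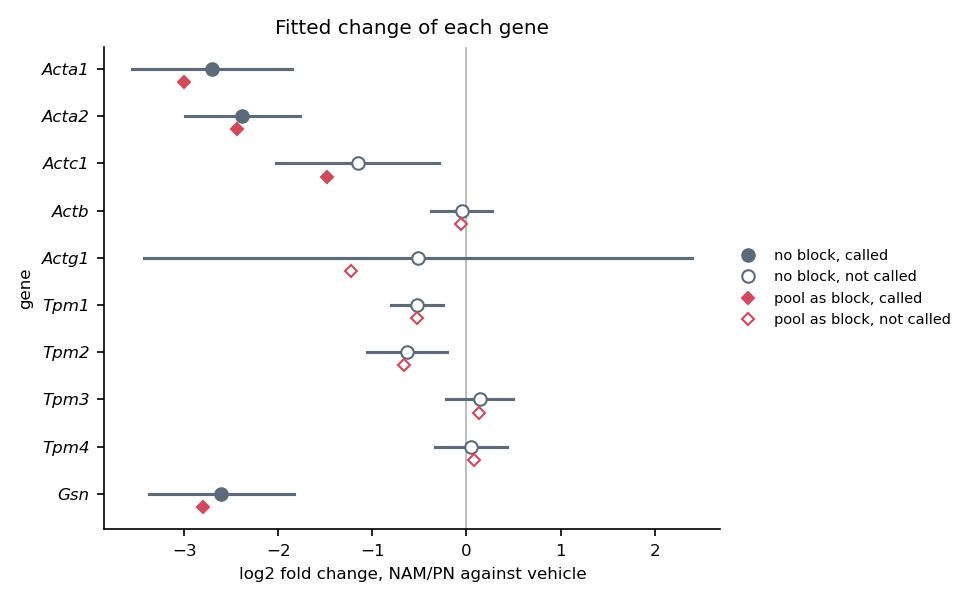
Log2 fold change of each gene (NAM/PN against vehicle) without a block, as circles with 95% intervals, and with the pool as a block, as diamonds, where filled symbols are called lower. Acta1, Acta2 and Gsn are filled in both fits, Actc1 is filled with the block alone, and the wide interval belongs to Actg1.

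In vehicle the order of mean levels was Actb, Tpm1, Tpm4, Acta1, Acta2, Tpm2, Actc1, Tpm3, Gsn and Actg1. From Tpm4 down to Tpm3 each gene overlapped the next in the range of its libraries, so neighbours there were not distinct in order. Genes further apart could be, as Tpm3, at most 217 CPM, lay below every vehicle library of Tpm4, Acta1, Acta2 and Tpm2. Actb, Tpm1, Gsn and Actg1 were each separate from their neighbours. With NAM/PN the order was Actb, Tpm1, Tpm4, Tpm2, Tpm3, Actc1, Acta2, Acta1, Gsn and Actg1. Neighbours from Tpm2 through Gsn overlapped. The mean levels of the 3 muscle actins lay among those of the tropomyosins in vehicle and below those of all 4 tropomyosins with NAM/PN.

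Levels were also compared between the 4 pools, a comparison that is independent of the treatment contrast, and no gene of the family was called in the edgeR test. For each of Acta1, Acta2 and Actc1, pools 2 and 4 were above pools 1 and 3 in vehicle and again with NAM/PN. The summed muscle actins were 701, 1152, 824 and 1349 CPM in vehicle pools 1 to 4 and 132, 415, 129 and 287 CPM with NAM/PN. In a joint edgeR test of the pools, with treatment in the model, these 3 were the genes of the family with an unadjusted p under 0.05, a level that 322 (2.67%) of all tested genes reached, but none of the 3 passed the correction over 12060 genes (adjusted p = 1.00 in edgeR for each). The test called 1 of all tested genes (0.00829%), which was not of the family. By DESeq2's likelihood ratio test the adjusted p was 0.0080 for Acta2 and 0.014 for Actc1. In edgeR, Acta1 was called when vehicle pool 1 was left out (adjusted p = 0.0023). Actc1 was called in edgeR when vehicle pool 2 was left out (adjusted p = 0.0096). With no filter on low counts, edgeR called all 3, at adjusted p = 6.7e-06 for Acta1, 0.0096 for Acta2 and 1.5e-08 for Actc1. The summed myogenic differentiation markers had the same ranking of pools 2 and 4 over pools 1 and 3, at 1161, 1738, 1072 and 2272 CPM in vehicle pools 1 to 4 and 171, 368, 292 and 448 CPM with NAM/PN. Their part in the order of the pools was not tested.

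Myogenic differentiation markers were also lower as a sum, and part of them were called. The list was written with earlier results of this contrast known. All 12 listed genes (Myog, Mymk, Myh3 and others) had a negative log2 fold change, beside 6056 of 12060 tested genes. Of the 12, 7 were called lower (6 with the block), beside 0.995% of all tested genes (1.02% with the block). The median was -2.33. Myh8, Ckm, Atp2a1, Casq2 and Actn2 were not called, and Actn2 was at -0.00097 (SE 1.56). Their summed level was 1072 to 2272 CPM in vehicle and 171 to 448 CPM with NAM/PN. These values stood beside the lower muscle actins and gelsolin, and their part in them was not tested.

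For each of the 3 genes called in both fits, the genes with the most similar profile over the 8 libraries were listed as a description. Likeness was the root mean square difference in centred log2 CPM among 9203 genes. It includes the treatment contrast on which the family was selected, so that genes with a similar log2 fold change rank near by construction, and those listed had log2 fold changes of -2.60 to -2.02. For Acta1 these were Pgam2 (0.36), a muscle glycolytic enzyme, Ccdc141 (0.40) and Mylpf (0.40), a fast myosin light chain. Acta2 was nearest to Mymk (0.23), the membrane protein of myoblast fusion, and Myh3 (0.24), embryonic myosin heavy chain, which changed places at a prior count of 0.5, and Myog (0.34), the transcription factor myogenin. The nearest to Gsn were Mylpf (0.29), C1qtnf3 (0.37), a secreted C1q family protein, and Pgam2 (0.42).

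Among 5 lists of other genes of the actin system, the thin filament partners of striated muscle had the lowest median. Of 16 tested members of this list, which holds troponins, tropomodulins, leiomodins, nebulin and actin-binding Xin proteins, 7 were called lower (8 with the block) and 0 higher, beside 0.995% of all tested genes called lower (1.02% with the block), and the median log2 fold change was -1.89. The list was written with earlier results of this contrast known. Neb, the giant protein that spans the thin filament, fell from 247 ± 103 to 67.2 ± 18.1 CPM (log2 fold change -1.88, adjusted p = 0.00068 in edgeR). The calcium-binding troponin C genes Tnnc2 (log2 fold change -3.03, adjusted p = 0.0016 in edgeR) and Tnnc1 (-2.14, adjusted p = 0.0033) were called lower. The tropomyosin-binding troponin T genes Tnnt1 (-1.73, adjusted p = 0.0017 in edgeR), Tnnt3 (-1.90, adjusted p = 0.0043) and Tnnt2 (-1.34, adjusted p = 0.013) were called lower as well. Named after their values were seen, Tnni1, the slow inhibitory troponin, was the other call (-2.45, adjusted p = 0.047 in edgeR), and Lmod3, which nucleates thin filaments, was added by the block (adjusted p = 0.013 against 0.069 without it). Tnni1 lost its call when any of 7 of the 8 libraries was left out (all but NAM/PN pool 4), and Tnnt2 when vehicle pool 2 or 4 or NAM/PN pool 1 or 3 was. Tmod3, a tropomodulin of non-muscle cells also named after its value was seen, had a log2 fold change of 0.05.

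The remaining lists held 0 called genes in edgeR, with and without the block. In the list of 36 genes for actin turnover and nucleation, 33 were tested, 3 had an unadjusted p under 0.05, and the median log2 fold change was 0.07. Its smallest p was that of Arpc1b, a subunit of the Arp2/3 complex that nucleates branched filaments, at 862 ± 166 CPM in vehicle and 1235 ± 179 CPM with NAM/PN (log2 fold change 0.52, adjusted p = 0.18 in edgeR). Of the SRF list (SRF, its cofactors and cytoskeletal SRF targets), 21 genes were tested, 4 had an unadjusted p under 0.05, and the median was -0.11. Srf itself, named here for the list, had a log2 fold change of 0.08, at 29.0 ± 12.1 CPM in vehicle and 30.6 ± 1.79 CPM with NAM/PN. Cnn3, an actin-binding calponin, had the smallest p of that list (377 ± 68.0 and 252 ± 39.0 CPM, log2 fold change -0.58, adjusted p = 0.15 in edgeR). DESeq2 called Arpc1b higher (adjusted p = 0.041) and Cnn3 lower (adjusted p = 0.037).

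Of 7 other listed members of the gelsolin family, 3 were tested, all with a negative log2 fold change, 0 were called, 0 had an unadjusted p under 0.05, and the median log2 fold change was -0.30. Svil, the membrane-associated family member supervillin, had the smallest p (29.4 ± 8.73 and 18.1 ± 12.6 CPM, log2 fold change -0.70, adjusted p = 0.78 in edgeR). The 7 tested genes among other actins and actin-related proteins, which include the dynactin subunit gene Actr1a with the smallest p (log2 fold change 0.30, adjusted p = 0.78 in edgeR), all had positive log2 fold changes with a median of 0.18, and 0 had an unadjusted p under 0.05. Whether these lists differ from the family was not tested.

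**Figure D5:**
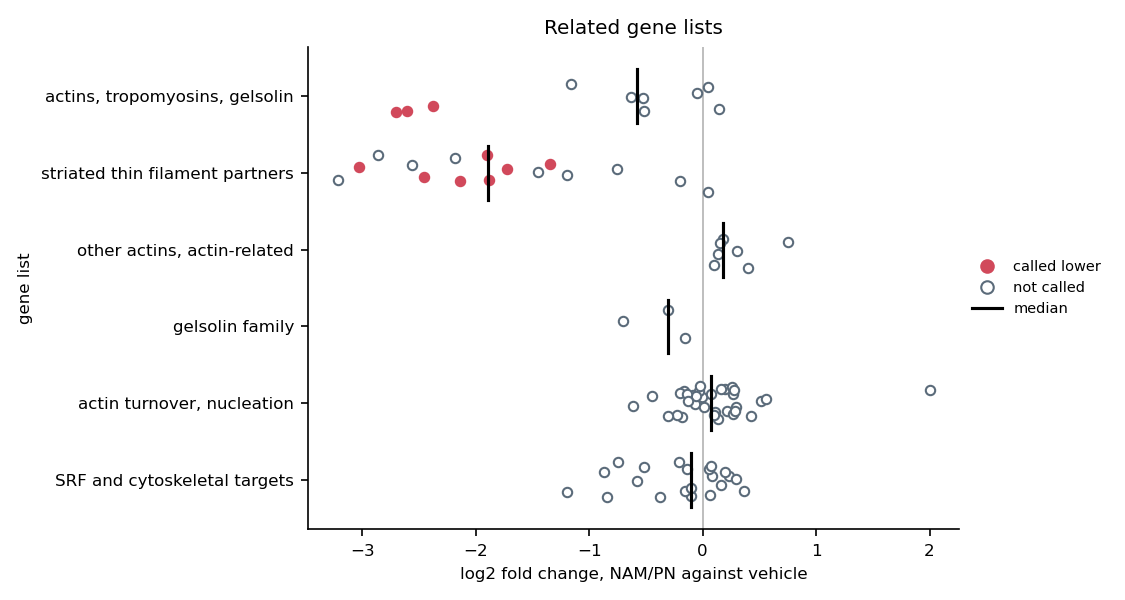
Log2 fold change (NAM/PN against vehicle) of the tested genes of each list, with called genes filled and a bar at the median. The thin filament partners have a median of -1.89 with 7 filled points, and the 4 lists under them have medians between -0.30 and 0.18 with 0 filled points.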

How the data were processed

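RNA from 8 cultures (4 pools of aged mice, vehicle and NAM/PN) was sequenced with the QuantSeq 3′ kit, which marks strand. The authors aligned reads to GRCm38 with RNASTAR and deposited raw counts per gene made with htseq-count (HTSeq 2.16.2 per the labels). The annotation release, strand setting and handling of multi-mapped reads are not given in the sources used here. Symbols, positions and transcript ends came from GENCODE M21, which named 55141 of 55487 rows.

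Counts were analysed in R 4.3.3 with edgeR 4.0.16 (filterByExpr, minimum count 10, TMM, quasi-likelihood test, Benjamini-Hochberg adjustment over 12060 genes, threshold 0.05) and DESeq2 1.42.0 as an alternative. Steps were tested on simulated data. Log2 CPM used a prior count of 2. Transcript ends were compared with blastn 2.17.0, and figures drawn with Python 3.11.15 and matplotlib 3.10.9. Promoter sequences are from RefSeq (GRCm38.p6).

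The members and gene lists were chosen with earlier results of these data known. All 10 members are named. In each related list, the called genes with the smallest p (up to 6) or, with none called, the gene with the smallest p is named, and so are the 3 genes most like Acta1, Acta2 and Gsn (average log2 CPM of at least 3).

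Per the labels, the vehicle and NAM/PN libraries of a number carry the same pool identifier, which was read as cells of the same mice. Deviations from group means correlated between paired libraries at -0.011, 0.014, -0.033 and 0.031 in pools 1 to 4. The main fit has no replicate block, and the pool as a replicate block is an alternative.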

Additional observations from a re-analysis of the deposited data

Results flagged for a closer look

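Of 42 groups of 4 libraries checked for a library far from the other 3 (Dixon's test at its 95% critical value), 3 were marked, and chance marks about 2.1. Tpm1 in vehicle pool 1 was at 1454 CPM, against 1627 to 1654 CPM in the other vehicle pools. Tpm3 in NAM/PN pool 4 was at 269 CPM, against 194 to 205 CPM in the other NAM/PN pools. In the same library the share of Tpm3 among the counts of the 4 tropomyosins was 13.2%, against 9.80% to 9.91%. Tpm3-rs7, whose transcript end is identical to that of Tpm3, had 30.7 CPM in NAM/PN pool 4 and 65.6 to 67.2 CPM in the other NAM/PN pools. In vehicle pool 1 Tpm3-rs7 was also at 30.7 CPM, with Tpm3 at 188 CPM. In vehicle pool 3 it was at 130 CPM, with Tpm3 at 191 CPM. Whether reads were shared between the genes was not tested.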

How the results depend on the processing

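Acta1, Acta2 and Gsn were called lower in the main fit and under all 13 alternatives, with log2 fold changes from -3.03 to -2.36, -2.79 to -2.16 and -2.90 to -2.28. All 130 log2 fold changes of the 10 genes under the alternatives moved by less than the SD of log2 CPM between libraries. That bound is wide for a fit with 1 library left out, so passing it says little about stability. Actc1 ranged from -1.99 to -0.86 and Actg1 from -1.23 to -0.10. With the replicate block, 4 members and 8 thin filament partners were called lower, against 3 and 7, and it changed no call in the related lists other than Lmod3. Members called lower numbered 5 with no filter on low counts (Actc1 and Tpm2 added), 4 by DESeq2 (Tpm1 added) and 4 without the rRNA gene that holds the largest count (Tpm1 added). Leaving out 1 library gave 3 to 4 members and 5 to 8 thin filament partners.

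Counts over all genes depended more on the setting. Without a block, 34 genes were higher and 120 lower. DESeq2 gave 75 and 214, and no filter gave 135 and 231. Leaving out 1 library gave 14 to 43 higher and 62 to 134 lower. The lowest count of lower genes came without vehicle pool 2 (62), followed by vehicle pool 4 (71) and NAM/PN pool 1 (78). Of the other 4 lists, 2 genes were called by DESeq2, and leaving out 1 library gave 0 to 1, with Cnn3 called without vehicle pool 3. Genes that differ between pools numbered 1 in edgeR, 9 by DESeq2, 33 with no filter, and 2 to 19 with 1 library left out. Members among them numbered 0, 2, 3 and 0 to 1. The cause of these shifts was not tested. With a prior count of 0.5, Pdlim3 replaced Ccdc141 among the genes most like Acta1, and Myh3 and Mymk changed order for Acta2. Precision was lowest for Actg1 among the members, at 0 to 55 counts per library.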
